A study of Mus musculus with 6 samples.

Results

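The paired immune receptors are families of surface proteins in which closely related genes encode receptors of opposite sign. The members described here were all protein-coding genes of the count table whose symbols begin with Siglec, Cd300, Trem, Sirp, Lilr, Pira, Pirb or Pilr, together with *Cd33* and the adaptor genes *Tyrobp* and *Hcst*. They came to 38 of 40481 genes, of which 21534 are protein coding. The CD300 family had 12 members, the Siglec family 7, the TREM family 6, the SIRP family 4, the LILR and PIR family 4 and the PILR family 3, and the adaptors were 2. From general knowledge of the proteins, 23 were taken as activating receptors and 9 as inhibitory receptors. Another 4 receptors (*Cd33*, *Siglec1*, *Cd300lg* and *Treml2*) were given neither role.

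An inhibitory receptor carries tyrosine motifs called ITIMs in its own tail, which recruit the phosphatases SHP-1 and SHP-2 and dampen signalling. An activating partner has a short tail and pairs through a charged residue in its membrane segment with an adaptor such as DAP12 (*Tyrobp*), DAP10 (*Hcst*) or the Fc receptor gamma chain (*Fcer1g*), whose tyrosine motifs recruit kinases. Macrophages express many of these receptors, whose ligands include sialic acids, phospholipids, lipoproteins and the self marker CD47.

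The data were poly(A)-selected RNA sequencing counts from unstimulated mouse bone marrow-derived macrophages, with 3 wild-type (WT) libraries and 3 libraries labelled Scd2-KO. The latter are the Scd2-m/-m macrophages of the study, in which a floxed *Scd2* gene, encoding stearoyl-CoA desaturase 2, is deleted by Cre expressed from the lysozyme M promoter. All 6 were grown from bone marrow in medium conditioned by CMG cells, a source of macrophage colony-stimulating factor. The labels do not say whether WT cells carried Cre or the floxed allele, nor do they give age, sex or batch, and nothing says that replicates were separate animals, so p-values measure only the spread between these libraries.

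Counts on genes came to 46285176 in the shallowest and 57629638 in the deepest library. *Scd2* averaged 69.1 ± 7.76 counts per 1000000 counts on genes (CPM; SD, n = 3) in WT and 45.8 ± 11.9 CPM in Scd2-m/-m libraries (log2 fold change -0.59, SE 0.19, edgeR FDR = 0.10). The groups did not overlap, but the difference did not pass the threshold of FDR 0.05. Reads from outside a floxed exon do not show whether that exon was deleted. The study's own measurement of the *Scd2* transcript, relative to housekeeping genes, gave a larger fall than these counts. *Lyz2*, the lysozyme M gene, stood at 39.7% of its WT level, and a Cre allele at this locus cannot be told apart from the loss of *Scd2* in this design. All 6 libraries had high *Xist*, at 658 to 842 CPM, and no more than 0.121 CPM of any of 4 Y-linked genes. Macrophage markers were abundant in every library. The sum of 10 markers was 40800 to 42700 CPM in WT and 24700 to 25400 CPM in Scd2-m/-m libraries. Of the 10, 6 were lower and 1, *Cd68*, higher, where 7.84% and 9.65% of all genes tested were. *Lyz2* is one of the 10, and without it the sum was 18700 to 19500 CPM in WT and 15700 to 16400 CPM in Scd2-m/-m libraries. In bulk samples, fewer cells of a type and less RNA per cell cannot be told apart.

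Differences were tested with edgeR over all 14778 genes that passed a filter on low counts, and a gene was called at FDR below 0.05. Of the 38 members, 36 passed the filter and 14 of these (38.9%) differed between genotypes, against 17.5% of all genes tested. Higher expression in Scd2-m/-m macrophages was called for 5 of 36 (*Cd300lg*, *Treml2*, *Cd33*, *Cd300lf* and *Siglecg*), against a background of 9.65%. Of these, *Siglecg* passed the filter only through the Scd2-m/-m libraries, the group where it was high. Where 1 CPM was required in 3 libraries, which left *Siglecg* out, 4 members were higher. Lower expression was called for 9 of 36 (*Siglece*, *Pilrb1*, *Pilrb2*, *Pilra*, *Cd300e*, *Hcst*, *Cd300a*, *Tyrobp* and *Cd300c2*), against a background of 7.84%. A called fall of more than 1 on the log2 scale was found for 5 of 36 members. Such a rise was found for 3 of 36, *Siglecg* among them. Of all genes tested, 0.528% fell and 2.31% rose by so much (2.84% in either direction). The libraries of the genotypes did not overlap for 17 of 36 members, among them all 14 that were called, and for 34.9% of all genes tested.

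**Figure D1:**
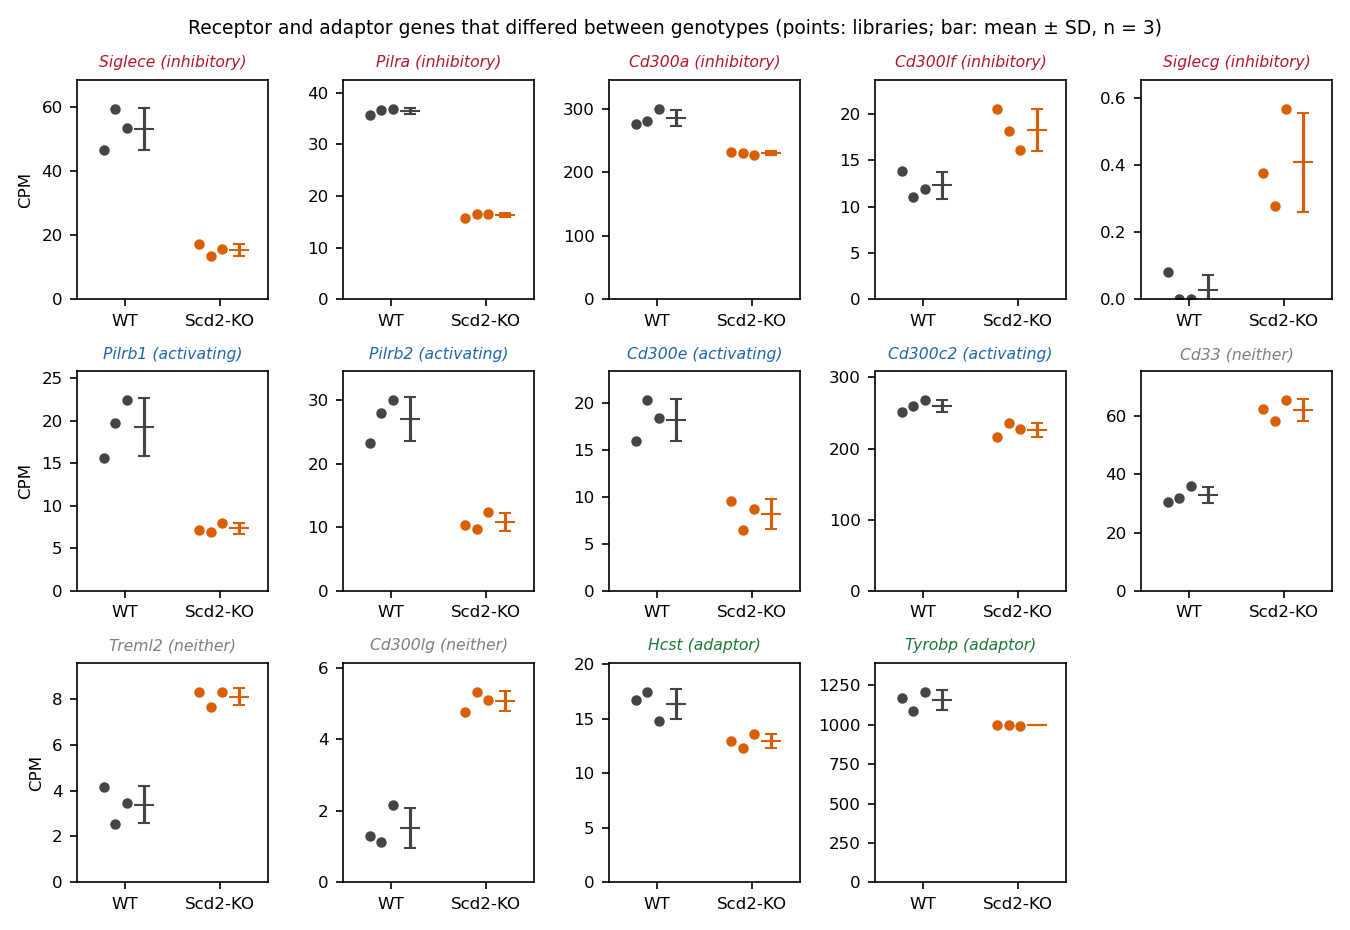
Level of each called member in every library, in CPM on an axis that starts at 0 and has its own scale in each panel. Points are libraries, 3 WT and 3 Scd2-KO (the Scd2-m/-m macrophages), horizontal lines are means and error bars are SD; in all 14 panels the genotypes lie apart.

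By role, 5 of 9 inhibitory receptors were called, 2 higher and 3 lower, and the median of their log2 fold changes was 0.01. *Siglecg*, among the higher, passed the filter only through the Scd2-m/-m libraries. Where 1 CPM was required in 3 libraries, which left it out, 4 inhibitory receptors were called. Among activating receptors 4 of 21 tested were called, all lower, with a median of -0.11. Their 19.0% was close to the 17.5% of all genes, and without WT replicate 1 the number called was 7. *Cd300ld* was among those 7 and was called higher (log2 fold change 0.22, FDR = 0.031), so the calls were then not all lower. Of the 4 receptors with neither role, 3 were higher. Both adaptors were lower, with a median of -0.27. Over all genes tested the median was 0.004. Members share adaptors, gene clusters and sequence, so they are not replicates of one another, and the roles were compared by these counts alone.

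**Figure D2:**
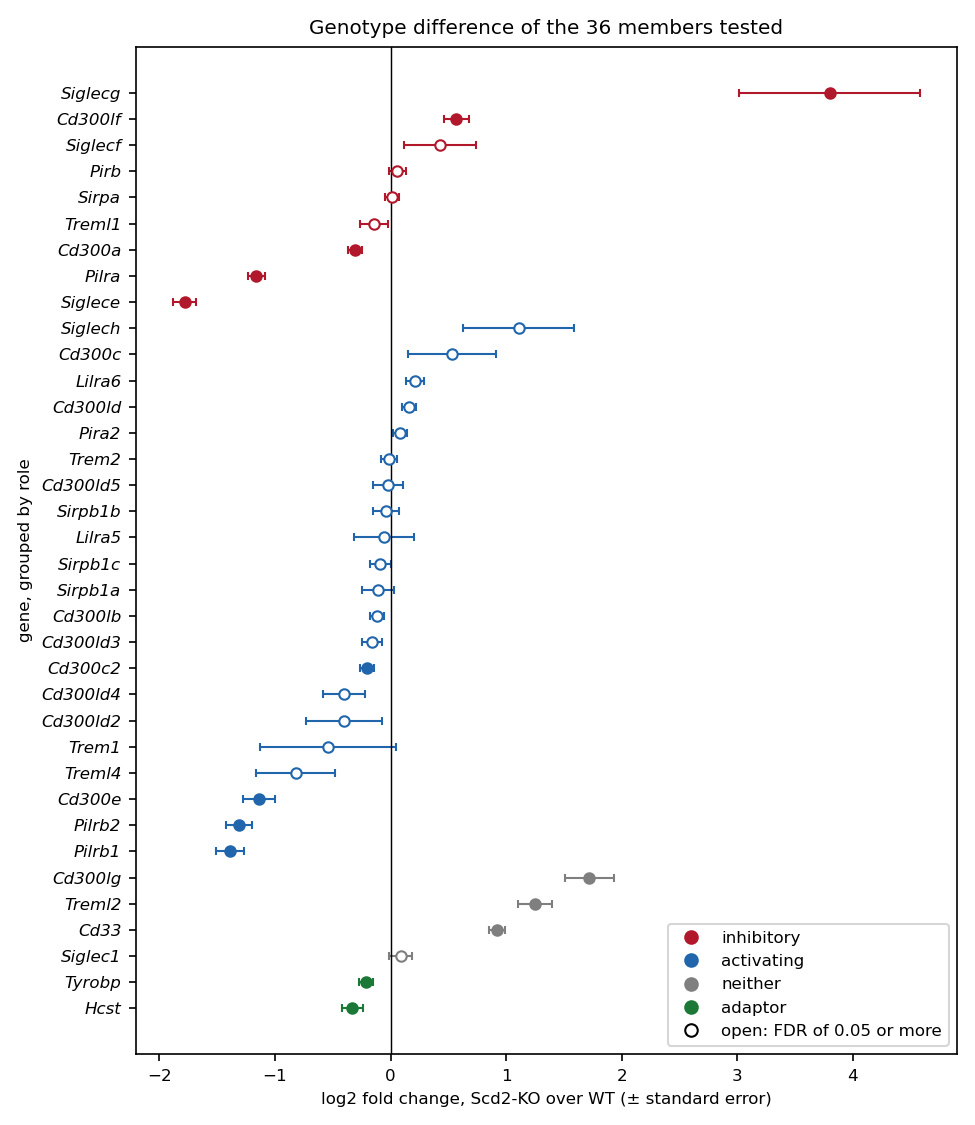
Fitted log2 fold change (Scd2-KO minus WT) of the 36 tested members, grouped by role, with bars of 1 SE from edgeR. Filled symbols mark the 14 members called at FDR below 0.05; inhibitory receptors lie on both sides of 0, and the 4 called activating receptors all lie below it.

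The PILR family was the one receptor family in which every member was called, all 3 lower, and its 3 genes lie side by side within 49.9 kb of chromosome 5. PILRA is an ITIM-bearing inhibitory receptor that binds sialylated O-glycosylated proteins, and the PILRB proteins are DAP12-coupled activating counterparts. The stretch of reference genome upstream of each gene is shown because the 3 genes moved together and because these stretches resemble one another. They are from RefSeq on GRCm38.p6, on the minus strand at chr5:137836282-137836528 (*Pilra*), chr5:137858107-137858299 (*Pilrb1*) and chr5:137871816-137872008 (*Pilrb2*), written 5′ to 3′ and ending at the last base before the first exon annotated by GENCODE. Capitals mark the letters GAAA, any 2 bases and GAAA again, as in an interferon-stimulated response element.
Pilra: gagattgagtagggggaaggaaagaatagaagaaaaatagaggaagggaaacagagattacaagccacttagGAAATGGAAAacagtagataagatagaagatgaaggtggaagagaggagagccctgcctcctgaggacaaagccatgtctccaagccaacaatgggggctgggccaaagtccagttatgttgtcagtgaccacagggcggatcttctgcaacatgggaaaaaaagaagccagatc
Pilrb1: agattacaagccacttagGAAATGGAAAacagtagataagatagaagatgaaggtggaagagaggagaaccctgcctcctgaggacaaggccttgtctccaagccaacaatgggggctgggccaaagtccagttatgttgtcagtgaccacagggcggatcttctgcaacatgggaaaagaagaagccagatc
Pilrb2: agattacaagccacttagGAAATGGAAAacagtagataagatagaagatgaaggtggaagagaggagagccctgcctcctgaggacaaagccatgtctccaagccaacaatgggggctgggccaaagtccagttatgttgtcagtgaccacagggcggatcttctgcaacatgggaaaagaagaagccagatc

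Over the 193 bases before the first exon that are printed for all 3 genes, *Pilra* and *Pilrb2* differed at 1 position (99.5% identity), *Pilrb1* and *Pilrb2* at 3 (98.4%) and *Pilra* and *Pilrb1* at 4 (97.9%). The match to this element lay 175 to 166 bases before the first exon in each of the 3 genes. Promoters, searched over the 250 bases before the RefSeq start, were found for 30 of 38 members, and 6 of them (20%) held its letters on either strand, against 3.0% of 27025 promoters of the same length. The other holders were *Cd300c*, *Sirpb1a* and *Sirpb1b*, none of which was called. The PU.1 letters GAGGAAGT were in 7 of the 30 (23.3%), against 2.4% of all promoters, namely *Cd300ld*, *Cd300ld3*, *Cd300ld4*, *Cd300ld5*, *Lilra6*, *Pira2* and *Pirb*, and none of these was called. The AP-1 letters TGANTCA were in 3.3% of member promoters and 6.9% of all, CACGTG in 13.3% and 6.0%, those of an NF-kB site (GGG, any 2 bases, TTTCC) in 3.3% and 1.4%, and the sterol response element letters TCACNCCA in 10.0% and 3.6%. Near-copies such as the *Cd300ld*, PIR and PILR genes share promoter sequence and are counted separately in these shares. The 3 PILR genes are among the 6 holders of the element marked in capitals. A match describes the letters alone.

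*Pilra* had 35.7, 36.6 and 36.9 CPM in WT and 15.8, 16.6 and 16.6 CPM in Scd2-m/-m libraries. The 3 libraries of each genotype lay close together, and the Scd2-m/-m mean was 44.8% of the WT mean (log2 fold change -1.16, SE 0.07, FDR = 8.74e-08). *Pilrb1* had 15.6, 19.7 and 22.4 CPM in WT and 7.11, 6.88 and 8.00 CPM in Scd2-m/-m libraries, a log2 fold change of -1.39 (SE 0.12, FDR = 5.82e-06). *Pilrb2* had 23.2, 27.9 and 30.0 CPM in WT and 10.4, 9.79 and 12.4 CPM in Scd2-m/-m libraries, a log2 fold change of -1.31 (SE 0.11, FDR = 3.24e-06). The inhibitory gene and both activating genes all fell past 1 on the log2 scale. Per kilobase of exon, the ratio of *Pilra* to the sum of *Pilrb1* and *Pilrb2* was 0.506 ± 0.0694 (SD, n = 3) in WT and 0.572 ± 0.0566 in Scd2-m/-m libraries, with overlapping values. In near-identical genes reads can be split or lost. Of the 75-base windows in their transcripts, 12.4% for *Pilrb1*, 11.6% for *Pilrb2* and 14.7% for *Pilra* also occur in another gene, and the summed *Pilrb1* and *Pilrb2* counts gave a log2 fold change of -1.35 (SE 0.11, FDR = 1.06e-05). *Pilra* shares 15.1% of its exonic bases with *Zcwpw1* on the opposite strand, whose reads cannot be told apart without knowing the use of strand, and *Zcwpw1* averaged 1.36 CPM in both genotypes.

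Among the other inhibitory receptors, *Siglece* changed most of those well above the filter. It encodes the main ITIM-bearing sialic acid receptor of mouse myeloid cells. Its level was 46.4, 59.4 and 53.4 CPM in WT and 17.2, 13.4 and 15.6 CPM in Scd2-m/-m libraries, or 29.1% of the WT mean (log2 fold change -1.78, SE 0.10, FDR = 4.85e-07). The fall was seen in every Scd2-m/-m library. *Cd300a*, an ITIM-bearing receptor for phosphatidylserine and phosphatidylethanolamine, had 276, 280 and 300 CPM in WT and 232, 231 and 227 CPM in Scd2-m/-m libraries (log2 fold change -0.31, SE 0.06, FDR = 0.00217). It was the most abundant inhibitory member that was called, and its fall was small. *Cd300lf*, an ITIM-bearing receptor for ceramide and other lipids, had 13.9, 11.1 and 11.9 CPM in WT and 20.6, 18.2 and 16.1 CPM in Scd2-m/-m libraries (log2 fold change 0.57, SE 0.11, FDR = 0.00222).

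*Siglecg*, best known as an inhibitory receptor of B cells, was near the limit of detection, with 4, 0 and 0 counts in WT and 21, 14 and 33 counts in Scd2-m/-m libraries. It passed the filter on low counts only through the Scd2-m/-m libraries, the group where it was high. Its call (FDR = 0.0040) is therefore not independent of that filter. Its fitted log2 fold change of 3.80 (SE 0.78) depends on the prior count of the fit. Without WT replicate 1, the one WT library with counts, it was 7.43. B cell transcripts were present beside it. Of 7 B cell markers, 4 were tested and 2 were higher, against 9.65% of all genes tested. These were *Cd79a*, with a log2 fold change of 1.34, and *Cd79b*, with 1.01. The summed B cell markers, most of which was *Ighm*, ran from 54.1 to 120 CPM in WT and from 83.6 to 116 CPM in Scd2-m/-m libraries, and their part in the *Siglecg* result was not tested.

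The most abundant inhibitory receptors were not called. *Sirpa*, the CD47 receptor that restrains phagocytosis, had 2820, 2920 and 2900 CPM in WT and 2940, 2850 and 2910 CPM in Scd2-m/-m libraries. Its log2 fold change was 0.01 (95% interval -0.12 to 0.15). *Pirb*, the inhibitory receptor for MHC class I, had 1050, 1120 and 1070 CPM in WT and 1090, 1080 and 1200 CPM in Scd2-m/-m libraries, a log2 fold change of 0.06 (95% interval -0.08 to 0.20). *Treml1*, an ITIM-bearing protein best known from platelets, had 5.58, 5.12 and 5.90 CPM in WT and 5.12, 5.19 and 4.80 CPM in Scd2-m/-m libraries (log2 fold change -0.14, FDR = 0.48). *Siglecf*, known from eosinophils and alveolar macrophages, averaged 0.92 ± 0.235 CPM in WT and 1.24 ± 0.491 CPM in Scd2-m/-m libraries, with a log2 fold change of 0.43 (95% interval -0.24 to 1.11).

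Of the activating receptors, *Cd300e* was called beside *Pilrb1* and *Pilrb2* with a fall past 1 on the log2 scale. It encodes a DAP12-coupled receptor of monocytes and macrophages. Levels were 15.9, 20.3 and 18.4 CPM in WT and 9.55, 6.45 and 8.67 CPM in Scd2-m/-m libraries (log2 fold change -1.14, SE 0.14, FDR = 0.000115). The highest Scd2-m/-m library lay below the lowest WT library. *Cd300c2* (log2 fold change -0.20, SE 0.06, FDR = 0.0305) was far more abundant, at 252, 260 and 268 CPM in WT and 216, 236 and 227 CPM in Scd2-m/-m libraries. Its call was lost when any library other than WT replicate 1 was left out, with FDR between 0.0553 and 0.12.

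*Trem2*, the DAP12-coupled receptor for lipids and lipoproteins, had the highest CPM of the activating receptors. Per kilobase of exon *Cd300c2* was higher, at a WT mean of 204 CPM against 143 for *Trem2*. *Trem2* had 753, 673 and 688 CPM in WT and 739, 709 and 646 CPM in Scd2-m/-m libraries, with a log2 fold change of -0.01 (95% interval -0.17 to 0.14). *Cd300lb*, another DAP12 partner, had 410, 389 and 390 CPM in WT and 381, 358 and 358 CPM in Scd2-m/-m libraries. Its groups did not overlap, yet the log2 fold change of -0.12 was not called (FDR = 0.20). *Cd300ld* had 182, 158 and 168 CPM in WT and 185, 193 and 190 CPM in Scd2-m/-m libraries, again without overlap and without a call (log2 fold change 0.16, FDR = 0.0971).

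Among the other activating CD300 genes, *Cd300ld3*, *Cd300ld4* and *Cd300ld5* are near-copies of one another. *Cd300ld3* had 56.5, 61.6 and 73.3 CPM in WT and 55.0, 60.3 and 56.6 CPM in Scd2-m/-m libraries (log2 fold change -0.16, FDR = 0.239), and *Cd300ld5* had 13.6, 14.8 and 18.7 CPM in WT and 18.2, 14.8 and 13.7 CPM in Scd2-m/-m libraries (log2 fold change -0.02, FDR = 0.954). All of the 75-base windows of *Cd300ld5* (100%), 90.4% of those of *Cd300ld4* and 81.5% of those of *Cd300ld3* occur in another gene, so values of these genes are uncertain, whereas the share was 22.2% for *Cd300ld2* and 0 for *Cd300c*. *Cd300ld2*, *Cd300ld4* and *Cd300c* averaged 3.18, 3.56 and 0.447 CPM in WT, with log2 fold changes of -0.40, -0.40 and 0.53 that were not called. Summed over 7 activating CD300 genes without *Cd300e* and *Cd300lb*, the level was 516 ± 19.4 CPM in WT and 494 ± 15.5 CPM in Scd2-m/-m libraries (log2 fold change -0.06, SE 0.06, FDR = 0.533).

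None of the 6 activating genes of the SIRP and of the LILR and PIR families was called by edgeR, DESeq2 or limma-voom, and 1, *Lilra6*, had an unadjusted edgeR p below 0.05. *Sirpb1a*, *Sirpb1b* and *Sirpb1c* encode DAP12-coupled relatives of SIRPA. *Sirpb1c* had 26.9, 25.8 and 25.5 CPM in WT and 20.6, 26.4 and 26.7 CPM in Scd2-m/-m libraries, *Sirpb1b* had 11.3, 11.7 and 11.3 against 9.21, 11.8 and 12.4 CPM, and *Sirpb1a* had 5.56, 6.09 and 6.55 against 4.46, 5.79 and 6.59 CPM. In each of these genes Scd2-m/-m replicate 1 was the lowest library, and the sum of the 3 genes had a log2 fold change of -0.08 (SE 0.09, FDR = 0.617). Windows that occur in another gene made up 40.1% for *Sirpb1c*, 46.9% for *Sirpb1b* and 29.3% for *Sirpb1a*. *Pira2*, an activating MHC class I receptor that signals through the Fc receptor gamma chain, had 81.6, 79.6 and 71.5 CPM in WT and 83.6, 79.1 and 84.0 CPM in Scd2-m/-m libraries (log2 fold change 0.08, FDR = 0.423), and 88.3% of its windows occur in another gene. *Lilra6* had 20.2, 21 and 23.9 CPM in WT and 24.5, 24.0 and 26.7 CPM in Scd2-m/-m libraries, apart but not called (log2 fold change 0.21, FDR = 0.0976). *Lilra5* averaged 1.41 CPM in WT and 1.36 CPM in Scd2-m/-m libraries.

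The rarest activating receptors that were tested were not called. *Treml4* averaged 1.48 ± 0.78 CPM in WT and 0.842 ± 0.192 CPM in Scd2-m/-m libraries, with a log2 fold change of -0.82 (95% interval -1.55 to -0.09, FDR = 0.118). *Trem1*, the amplifier of inflammatory responses, averaged 0.365 CPM in WT and 0.254 CPM in Scd2-m/-m libraries (95% interval of the log2 fold change -1.81 to 0.73). *Siglech*, the DAP12-coupled receptor of plasmacytoid dendritic cells, had 14, 8 and 8 counts in WT and 20, 13 and 41 counts in Scd2-m/-m libraries (log2 fold change 1.11, 95% interval 0.08 to 2.14, FDR = 0.134). *Trem3* with 2 to 12 counts and *Siglec15* with 0 to 9 counts in a library did not pass the filter.

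**Figure D3:**
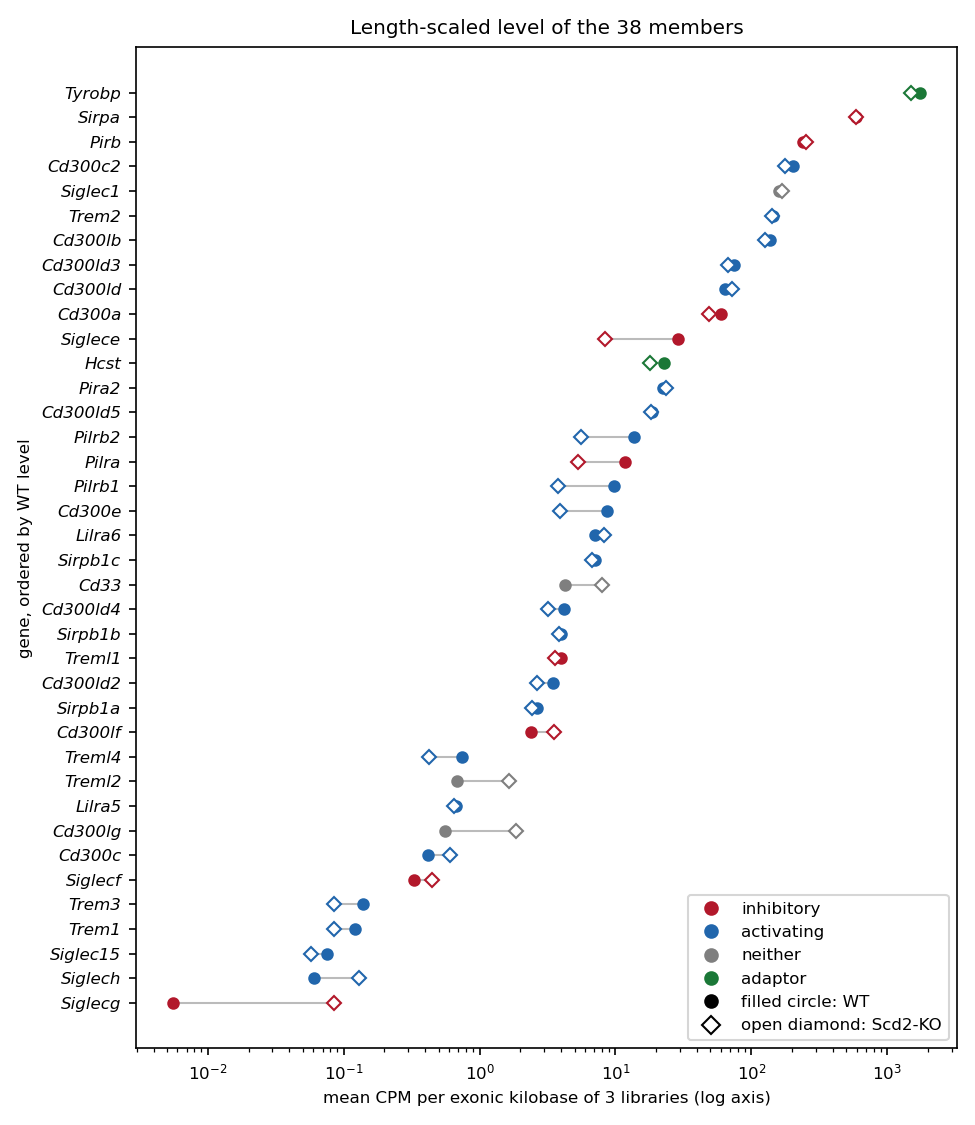
Mean level of each member in WT and Scd2-KO libraries in CPM per kilobase of exon, on a log axis, ordered by WT level. Filled circles are WT means and open diamonds Scd2-KO means (n = 3). Grey lines join the means of a gene and are not a spread, and colours mark roles. *Sirpa*, at 586 CPM per kilobase in WT, was the highest receptor and *Tyrobp*, at 1730, the highest member.

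Of the receptors with neither role, *Cd33* rose. Mouse CD33 differs from the human protein in lacking a typical inhibitory tail. Its level was 30.5, 32 and 36 CPM in WT and 62.5, 58.2 and 65.4 CPM in Scd2-m/-m libraries, or 189% of the WT mean (log2 fold change 0.92, SE 0.07, FDR = 2.32e-06). *Cd33* and *Siglece* lie in one cluster on chromosome 7 and moved in opposite directions. Per kilobase of exon, the ratio of *Siglece* to *Cd33* was 6.38, 7.80 and 6.22 in WT and 1.16, 0.97 and 1.00 in Scd2-m/-m libraries. The mean ratio was 6.80 ± 0.87 (SD, n = 3) in WT and 1.04 ± 0.101 in Scd2-m/-m libraries. Both genes had the genotypes apart, in opposite directions, so the separation of the ratio follows from those values and adds no further result.

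*Treml2*, a TREM-like receptor known from granulocytes, macrophages and lymphocytes, had 4.17, 2.54 and 3.44 CPM in WT and 8.31, 7.66 and 8.28 CPM in Scd2-m/-m libraries (log2 fold change 1.25, SE 0.15, FDR = 8.28e-05). *Cd300lg*, known as nepmucin from capillary endothelium, had 1.29, 1.13 and 2.16 CPM in WT and 4.77, 5.33 and 5.09 CPM in Scd2-m/-m libraries (log2 fold change 1.72, SE 0.21, FDR = 6.82e-05). Both were low in WT and higher in every Scd2-m/-m library. The 8 stromal and endothelial markers summed to 12.1 to 14.3 CPM in WT and 12.2 to 13 CPM in Scd2-m/-m libraries, and the 1 of them that was called, *Pecam1*, was lower (log2 fold change -1.32). *Siglec1*, the long sialic acid receptor of macrophages that lacks signalling motifs, had 970, 1080 and 1350 CPM in WT and 1240, 1190 and 1200 CPM in Scd2-m/-m libraries (log2 fold change 0.09, FDR = 0.584).

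Markers of other myeloid cells moved with genotype beside these results. For the marker counts given here, 9.65% of all genes tested were called higher and 7.84% lower. Of 13 neutrophil markers, 9 were tested and 6 were higher, with the sum at 22.7 to 26.2 CPM in WT and 35.2 to 45.2 CPM in Scd2-m/-m libraries and the defining marker *Ly6g* at no more than 0.0358 CPM. Of 10 monocyte and progenitor markers, 5 were higher and 1 lower, with sums of 140 to 155 and 150 to 214 CPM. *Ccr2*, the chemokine receptor of monocytes, rose from a mean of 47.8 to 115 CPM (log2 fold change 1.26, FDR = 0.0311). The lower marker, *F13a1*, fell from 53.4 to 31.8 CPM (log2 fold change -0.75, FDR = 0.00801). *Vcan*, with means of 39.2 CPM in WT and 22.3 CPM in Scd2-m/-m libraries, was not called (log2 fold change -0.81, FDR = 0.0883). *Cd33*, *Treml2* and *Cd300lf*, which rose, are also known from such cells. *Siglece*, named above for myeloid cells, and *Cd300e*, named for monocytes, fell (log2 fold changes -1.78 and -1.14). What part the cells behind these markers had in changes of either direction was not tested. Among plasmacytoid dendritic cell markers 1 of 7 tested was higher, among conventional dendritic cell markers 2 of 6, among platelet markers 1 of 5 was lower (*Pf4*, log2 fold change -0.41), and none of 7 tested markers of eosinophils, mast cells or erythroid cells was called by edgeR, DESeq2 or limma-voom, nor had an unadjusted edgeR p below 0.05. None of the 8 T and NK cell markers passed the filter.

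In the CD300, Siglec and TREM clusters, called members lay beside members that were not called. In the CD300 cluster, 11 genes over 244 kb of chromosome 11, *Cd300e* and *Cd300lf* are neighbours at one end and moved in opposite directions, so that their ratio per kilobase (*Cd300lf* over *Cd300e*) went from 0.28 ± 0.0685 (SD, n = 3) in WT to 0.924 ± 0.199 in Scd2-m/-m libraries. The 4 genes from *Cd300ld2* to *Cd300ld3* next to *Cd300e* were not called. In the TREM cluster, 6 genes over 134 kb of chromosome 17, *Treml2* was the one member called, between *Treml4* and *Trem2*.

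**Figure D4:**
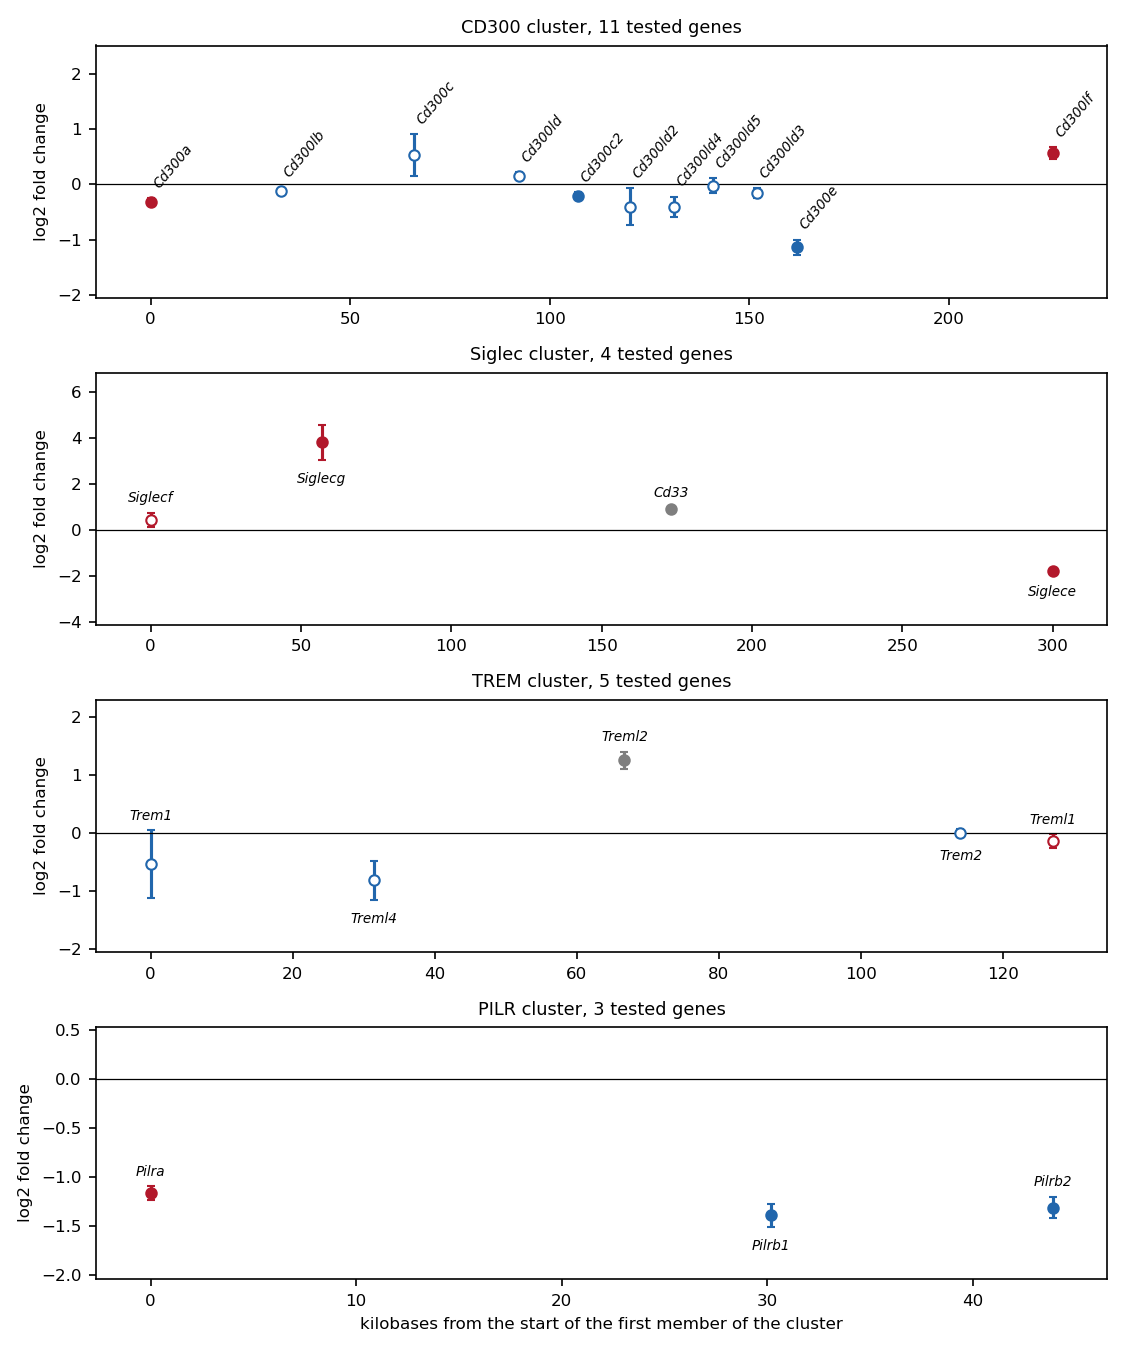
Fitted log2 fold change (Scd2-KO minus WT) with bars of 1 SE against distance in kilobases from the start of the first member, for the CD300, Siglec, TREM and PILR clusters. Filled symbols are called members; red marks inhibitory, blue activating and grey receptors with neither role, and in the PILR panel alone all members lie on one side of 0.

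Summed within roles, the balance of inhibitory to activating transcripts moved little. Receptors with neither role were left out of these sums. Over all receptors with a role, the ratio of summed CPM per kilobase was 1.26, 1.34 and 1.26 in WT. It was 1.37, 1.32 and 1.42 in Scd2-m/-m libraries, with overlapping values. *Sirpa* and *Pirb* make up most of the inhibitory sum. In the CD300 family the ratio was 0.122 ± 0.000728 in WT and 0.111 ± 0.00236 in Scd2-m/-m libraries, which did not overlap. The SIRP ratio was 42.8 ± 0.601 in WT and 46.3 ± 8.21 in Scd2-m/-m libraries, where replicate 1, at 55.7, stood above the others.

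Both adaptors were slightly lower. *Tyrobp*, encoding DAP12, had 1170, 1090 and 1210 CPM in WT and 1000, 1000 and 995 CPM in Scd2-m/-m libraries, or 86.5% of the WT mean (log2 fold change -0.21, SE 0.06, FDR = 0.0355). *Hcst*, encoding DAP10 and lying next to *Tyrobp* on chromosome 7, had 16.7, 17.5 and 14.8 CPM in WT and 13, 12.3 and 13.6 CPM in Scd2-m/-m libraries (log2 fold change -0.33, SE 0.09, FDR = 0.0199). The groups did not overlap for either gene, and the differences were modest. The *Tyrobp* call was lost when any one of the 6 libraries was left out, with FDR between 0.0599 and 0.14. The *Hcst* call was lost without WT replicate 1, WT replicate 2 or Scd2-m/-m replicate 2, with FDR between 0.0515 and 0.119. *Fcer1g*, the adaptor used by the activating PIR proteins, averaged 1330 ± 62.7 CPM in WT and 1350 ± 100 CPM in Scd2-m/-m libraries and was not called (log2 fold change 0.02, 95% interval -0.13 to 0.17).

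Downstream of the adaptors and ITIMs, 14 of 40 signalling partners (35%) were called, 3 higher and 11 lower; the median log2 fold change over all 40 was -0.06. Over all genes 17.5% were called, 9.65% higher and 7.84% lower. The number of partners called was 7 without WT replicate 2 and 8 without Scd2-m/-m replicate 2. The higher genes were *Lat2*, *Cblb* and *Blnk*. *Lat2*, a membrane scaffold for immune receptor signalling, went from 68.5 ± 3.37 CPM in WT to 132 ± 4.11 CPM in Scd2-m/-m libraries (log2 fold change 0.94, SE 0.06, FDR = 2.91e-07). *Cblb*, a ubiquitin ligase that restrains such signalling, went from 76.5 ± 0.669 to 112 ± 8.34 CPM (log2 fold change 0.56, FDR = 4.52e-05), and the adaptor gene *Blnk* had a log2 fold change of 0.28. The lower genes with the smallest p were *Src*, *Ptpn6*, *Ptpn11* and *Dok3*. *Src*, a tyrosine kinase, fell from 12.6 ± 0.878 to 6.91 ± 0.686 CPM (log2 fold change -0.87, SE 0.10, FDR = 6.77e-05). *Ptpn6* and *Ptpn11* encode SHP-1 and SHP-2, the phosphatases that ITIMs recruit, and had log2 fold changes of -0.29 (FDR = 0.00269) and -0.30 (FDR = 0.00393). *Dok3*, an inhibitory adaptor, had a log2 fold change of -0.25. *Syk*, the kinase that binds DAP12, averaged 553 CPM in WT and 535 CPM in Scd2-m/-m libraries and was not called (log2 fold change -0.05, FDR = 0.62).

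Among ligands and shedding enzymes, 2 of 9 tested genes (22.2%) were called, near the 17.5% of all genes. *Apoe*, a lipoprotein component and ligand of TREM2, fell from 9970 ± 610 CPM in WT to 3500 ± 231 CPM in Scd2-m/-m libraries (log2 fold change -1.51, SE 0.08, FDR = 4.05e-08). *Spp1*, encoding the secreted protein osteopontin, which is not an established ligand of these receptors, rose from 559 ± 125 to 1310 ± 132 CPM (log2 fold change 1.23, SE 0.16, FDR = 0.0018). *Cd47*, the SIRPA ligand, averaged 559 ± 77.2 CPM in WT and 517 CPM in Scd2-m/-m libraries and was not called.

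Siglecs and PILRA recognise sugars that carry sialic acid. Of 23 tested genes of sialic acid synthesis, transport and removal, 3 (13%) were called, a smaller share than the 17.5% of all genes. Their median log2 fold change was 0.13. *Cmah*, which converts the common sialic acid of mouse cells to its glycolyl form, went from 2.58 ± 0.657 CPM in WT to 5.41 ± 0.678 CPM in Scd2-m/-m libraries (log2 fold change 1.07, SE 0.18, FDR = 0.000875). *St6gal1*, a sialyltransferase that makes alpha-linked sialic acid on galactose, went from 133 ± 16.4 to 175 ± 14.1 CPM (log2 fold change 0.40, FDR = 0.00618). *St3gal3*, another sialyltransferase, had a log2 fold change of -0.25 (FDR = 0.0251).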

How the data were processed

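Unstimulated BMDMs were analysed, with 3 WT and 3 Scd2-m/-m (labelled Scd2-KO) libraries. Per the study's methods, the authors used STAR and the Ensembl primary assembly, GRCm38, and the counts they deposited are raw whole numbers for each gene. The counting tool and any use of strand were not given in the sources used here. Of low counts, from 1 to 20, between 60.9% and 64.9% were even, and what a count represents is not stated. The counts on genes of every library exceeded the paper's average number of reads per sample. Some reads, as counted there, must therefore have given more than a single count. A further deposited table holds the authors' own test results (log2 fold changes, confidence limits, p-values, statistics and log2 CPM) and was not used.

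Of 40757 entries, 276 repeats were removed. edgeR 4.0.16 in R 4.3.3 was run with filterByExpr, TMM factors and the robust quasi-likelihood test over 14778 genes, with Benjamini-Hochberg adjustment (FDR). The SE was computed as the absolute log2 fold change over the root of F, and 95% intervals use this SE. The script was tested on simulated data. CPM used TMM-scaled library sizes. Exonic lengths, positions and transcripts were those of GENCODE M21 on GRCm38. Members, roles, lists and markers were chosen with earlier results of these data known. Values in every library were given for each called member, each tested member with at least 5 CPM and both adaptors, and up to 4 called genes per direction with the smallest p were named from each list. *Syk*, *Fcer1g*, *Cd47* and single markers were named after their values were seen. The alternatives were other normalizations, filters, tests (limma 3.58.1, DESeq2 1.42.0) and thresholds, summed near-copies, halved counts, a replicate block and leaving out each library. Every pair of replicates within a genotype differed by more than counting noise (chi-square per gene of 10.4 to 31.4).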

Additional observations from a re-analysis of the deposited data

How the results depend on the processing

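Over 21 alternative settings no called member changed sign, and 8 of 14 were called in every setting that tested them. *Siglecg*, among the 8, ranged from 3.23 to 7.43 in log2 fold change. *Cd33*, *Cd300a* and *Cd300lf* were lost only where a log2 fold change above 1 was required, which left 3 members higher, 5 lower, 3 inhibitory receptors and 0 signalling partners. Without normalization factors *Tyrobp* (FDR = 0.066) and *Cd300c2* (FDR = 0.0705) were not called. Of 14 members named in full and not called, 4 were called in some setting, *Siglec1*, *Lilra6* and *Cd300ld* as higher and *Cd300lb* as lower. The inhibitory median was 0.04 without factors, -0.05 where 1 CPM was required in 3 libraries, -0.06 where every library needed 10 counts, -0.06 with halved counts and -0.01 with limma-voom quality weights. *Siglecg* was not tested with those filters or with halved counts. The weights also gave an activating median of -0.03 and 23 signalling partners called. At FDR below 0.01, 7 partners were called. Summing near-copies left 2 activating receptors called, since *Pilrb1* and *Pilrb2* became 1 entry and *Cd300c2* joined a sum that was not called.

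Leaving out each library gave 5 to 7 members higher, 6 to 9 lower, 3 to 7 activating and in each case 5 inhibitory receptors called, medians of -0.15 to -0.05 (activating) and 0 to 0.03 (inhibitory), and 7 to 15 signalling partners. *Siglecg* was among the 5 inhibitory receptors in each of these fits. The 7 activating receptors were without WT replicate 1, and the low partner counts were 8 without Scd2-m/-m replicate 2 and 7 without WT replicate 2.

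Libraries with the same replicate number had correlations of deviations of 0.211, -0.104 and 0.184. Libraries with different numbers were not compared, so these values cannot show whether replicate numbers paired the samples. With the replicate block 6 members were higher, 9 lower, 5 activating and 5 inhibitory receptors and 18 partners called. Total counts without factors moved the median of all genes by most, to 0.036. Below 1 CPM intervals were wide.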
